A study of Mus musculus with 11 samples.

Results

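The genes described here encode the ligands and receptors of vascular endothelial growth factor (VEGF) and angiopoietin signalling, the main growth factor systems that act on blood vessels. They were taken by symbol and number 10 of the 30790 genes tested. Their ligands are Vegfa, Angpt1 and Angpt2, their VEGF receptors Flt1, Kdr and Flt4, their co-receptors Nrp1 and Nrp2, and their angiopoietin receptors Tek and Tie1. Each gene had 1 probe set.

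RNA was measured in vascular fragments, which are blood vessel pieces isolated from the ipsilateral cerebral hemisphere after occlusion of the middle cerebral artery (MCAO), a stroke model. All mice were adult C57BL/6 males, all were operated, and vessels without occlusion were not analysed here. They received imatinib, an inhibitor of tyrosine kinases including ABL, KIT and the PDGF receptors, or phosphate-buffered saline (PBS). The 11 arrays form 4 groups: 3 arrays of PBS and 2 of imatinib from 3 h after MCAO, and 3 arrays of each treatment from 24 h after it. Mice sampled at 3 h were treated 3 times and mice sampled at 24 h were treated 4 times, so time and the number of treatments cannot be told apart. The labels do not say whether replicates came from separate animals, so p-values measure only the spread between these samples, which may be technical.

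VEGF-A, the product of Vegfa, drives the growth and leakiness of vessels mainly through VEGFR2, the product of Kdr. VEGFR1 (Flt1) binds it more tightly but signals weakly and acts largely as a trap, while neuropilins hold it in complex with VEGFR2. Angiopoietin-1, made mostly by cells of the vessel wall, activates the receptor TIE2 (Tek) and keeps brain vessels quiet and tight. Angiopoietin-2, made and stored by endothelial cells, competes for TIE2 and is known as a sign of activated endothelium, and TIE1 is a partner of TIE2 without an agreed ligand of its own.

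Values are log2 signals after robust multi-array averaging (RMA) in which 1 unit is a 2-fold difference. Their precision is limited by the number of arrays. The arrays had medians of 5.17 to 5.25 and 25th percentiles of 3.83 to 3.92. Every member lay above the median of the genes on every array. As a check of the vessel label, none of 20 endothelial markers that hold no member lay under the 25th percentile on every array of a group. Neither did any of the 12 pericyte, 10 smooth muscle, 9 perivascular fibroblast, 10 astrocyte or 9 microglial markers. Of the 10 neuron markers only Nefm lay under it on every array, and of 8 oligodendrocyte markers only Ermn. This bar thus does not separate vessels from other brain tissue. Mean levels over the arrays were 10.26 to 10.94 for the endothelial markers, 8.61 to 9.57 for pericytes, 9.83 to 10.40 for microglia, 6.84 to 7.57 for astrocytes and 5.06 to 5.38 for neurons. These levels come from different probe sets and are not compared with each other, so the purity of the fragments was not measured. Pearson's r across genes, which are not independent replicates, was 0.988 to 0.993 between arrays of a group and 0.972 to 0.992 between groups.

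Promoter windows of 250 bases before a RefSeq start were found for 8 of the 10 members in build GRCm38.p6, that is for all but Angpt1 and Angpt2. They are shown for Vegfa, a ligand that rose in PBS, and for Flt1 and Tie1, the receptors that fell at both treatments, as the stretch upstream of each. The Vegfa window lies at chr17:46032378-46032627, the Flt1 window at chr5:147726012-147726261 and the Tie1 window at chr4:118489850-118490099, all on the minus strand and written 5′ to 3′. Those of Vegfa and Tie1 begin at the outermost RefSeq start of the gene, and that of Flt1 begins at another start. Capitals mark matches on either strand to GGGCGG (the GC box), ACGTG (the core of the hypoxia response element), AGGAAG (an ETS core with flanks), the FOXO core GTAAACA, or the GATA core with its flanks, written AGATAA.
Vegfa: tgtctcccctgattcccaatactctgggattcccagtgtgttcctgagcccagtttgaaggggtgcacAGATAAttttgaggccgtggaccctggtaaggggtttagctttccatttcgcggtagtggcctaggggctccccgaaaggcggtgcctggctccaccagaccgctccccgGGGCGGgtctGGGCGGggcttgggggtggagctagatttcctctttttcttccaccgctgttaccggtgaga
Flt1: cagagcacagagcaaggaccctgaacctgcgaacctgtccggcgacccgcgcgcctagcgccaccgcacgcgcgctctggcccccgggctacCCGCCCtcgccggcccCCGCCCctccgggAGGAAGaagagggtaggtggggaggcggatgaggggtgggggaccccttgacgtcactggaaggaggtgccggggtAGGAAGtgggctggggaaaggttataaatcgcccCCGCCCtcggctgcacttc
Tie1: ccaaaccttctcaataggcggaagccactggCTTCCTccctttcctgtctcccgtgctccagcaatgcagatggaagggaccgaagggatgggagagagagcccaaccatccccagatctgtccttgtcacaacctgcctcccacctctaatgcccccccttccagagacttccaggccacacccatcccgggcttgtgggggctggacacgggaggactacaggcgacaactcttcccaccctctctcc
The Vegfa window holds 2 GC boxes and 1 GATA match. The Flt1 window holds 3 GC boxes and 2 ETS matches, and the Tie1 window holds 1 ETS match. ETS proteins such as ERG are known regulators of endothelial genes, but AGGAAG occurs in 29.5% of the 32851 promoter windows of the table, GGGCGG in 32.7% and AGATAA in 9.99%. No ACGTG match (16.6% of windows) or GTAAACA match (3.17%) was found in these 3 windows. A second Vegfa window of the table, at chr17:46025164-46025413 and begun at another start, holds 1 ACGTG match and 1 GC box. It lies downstream of the outermost start, so its ACGTG match is not upstream of that start. A match describes letters only and shows no binding.

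The first comparison asked how the family changed in PBS-treated mice between 3 h and 24 h after MCAO. Angpt2 rose 2.53-fold and Vegfa 1.78-fold, whereas the receptor genes Tie1 and Flt1 fell, to 0.585 and 0.72 of their 3 h signal. The other 6 members did not pass the test. In limma, 4 of the 10 members thus passed a Benjamini-Hochberg adjusted p of 0.05 over all genes, against 16.6% of the 30790 genes tested. The 2 that rose stand beside 9.34% of all genes, and the 2 that fell beside 7.28%. The median difference of the members was -0.09 and that of all genes -0.02. The same comparison in imatinib-treated mice takes its differences from other arrays. Both comparisons use a variance estimated over all arrays, so their p-values and calls are not independent. In imatinib Angpt2 rose 2.49-fold and Nrp1 1.59-fold, and Tie1 and Flt1 fell. Thus 4 members passed there, against 13.1% of all genes (7.76% higher, 5.32% lower).

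**Figure D1:**
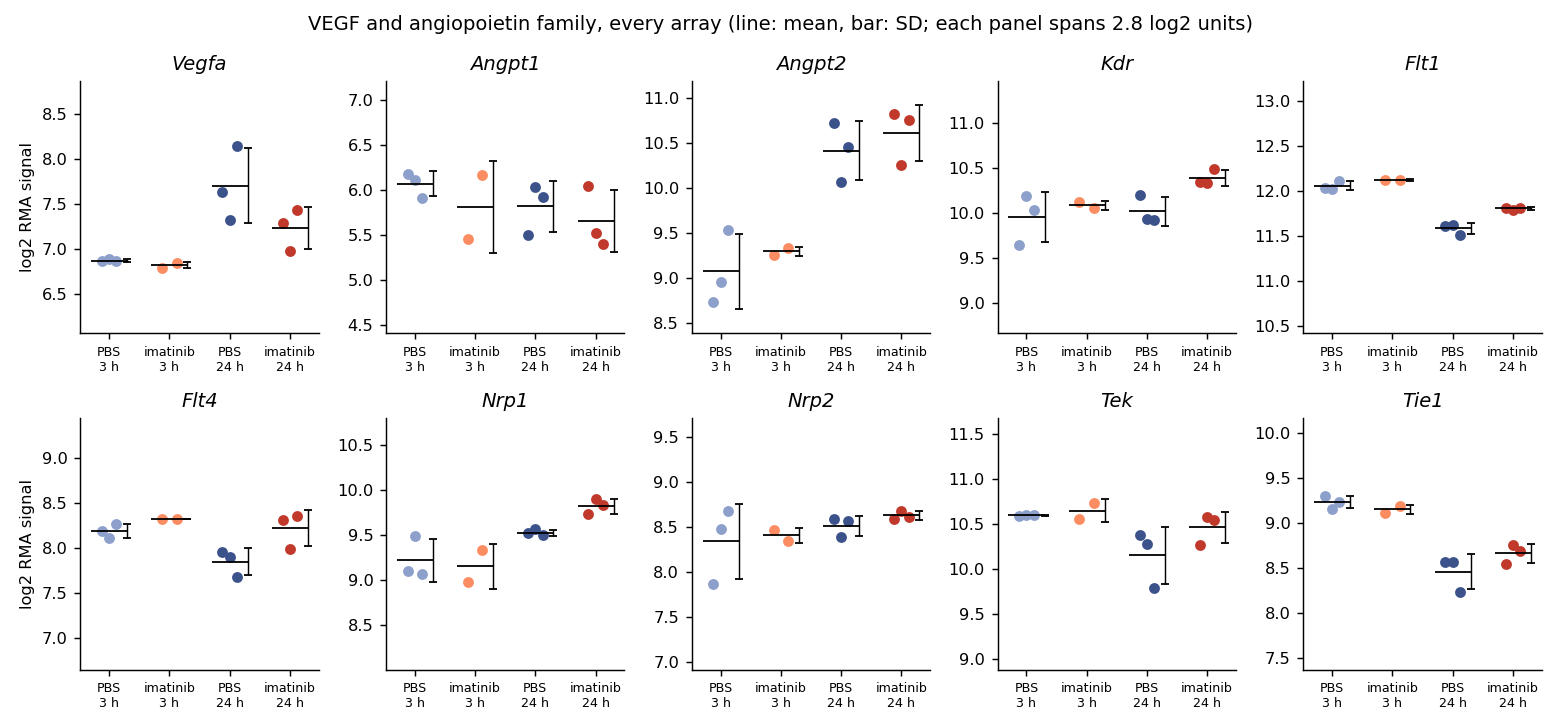
Log2 RMA signal of the 10 members on each of the 11 arrays (points), with the mean (line) and SD (bar) of each group. Each panel spans the same number of log2 units and has its own range, since levels of different probe sets cannot be compared; Angpt2 stands above every 3 h array on all 24 h arrays and Tie1 stands below.

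Among the ligands, Angpt2 had the largest change of the family. Its signals in PBS were 8.73, 8.96 and 9.54 at 3 h and 10.72, 10.07 and 10.46 at 24 h. In imatinib they were 9.26 and 9.33 at 3 h and 10.82, 10.26 and 10.76 at 24 h. All 6 arrays of 24 h were above all 5 arrays of 3 h, while the treatments overlapped at each time. Means were 9.08 ± 0.42 (SD, n = 3) and 10.42 ± 0.33 (n = 3) in PBS, a log2 difference of 1.34 ± 0.22 (SE) with an adjusted p of 0.00158 in limma. In imatinib the means were 9.30 ± 0.05 (n = 2) and 10.61 ± 0.31 (n = 3), a difference of 1.32 ± 0.25 (adjusted p = 0.00496 in limma). The rise differed between treatments by -0.03 ± 0.34 (95% confidence interval -0.76 to 0.71, adjusted p = 0.997 in limma).

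Vegfa signals lay close together at 3 h, at 6.86, 6.89 and 6.86 in PBS and 6.79 and 6.85 in imatinib. At 24 h they were 7.63, 7.32 and 8.15 in PBS and 7.29, 6.98 and 7.43 in imatinib. The 24 h arrays were thus all above the 3 h arrays, but they were also more spread, with an SD of 0.42 in PBS against 0.02 at 3 h. The rise in PBS was 0.83 ± 0.18 (adjusted p = 0.00781 in limma). In imatinib the difference was 0.41 ± 0.20 and did not pass (adjusted p = 0.235). The test of the difference between the treatments gave -0.42 ± 0.27 (95% confidence interval -1.01 to 0.18, adjusted p = 0.929 in limma), so no smaller rise with imatinib is shown.

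Macrophages can also make VEGF-A, and their markers moved with time. Of 13 monocyte and macrophage markers, 9 rose in PBS and 8 in imatinib, and their mean log2 level was 7.54 to 7.73 in the PBS 3 h group, 7.65 on both imatinib 3 h arrays, 9.24 to 9.80 in the PBS 24 h group and 9.16 to 9.31 in the imatinib 24 h group. Of 12 neutrophil markers 4 rose in PBS and 3 in imatinib (0 without imatinib 3 h replicate 2), with mean levels of 5.65 to 6.44, 5.67 to 6.01, 6.47 to 6.99 and 6.32 to 6.55 in the same order of groups. All 13 macrophage markers lay above the 25th percentile on at least 1 array of each group, and Camp was the neutrophil marker below it on every 24 h array. The part of these cells in the Vegfa signal was not tested.

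Angpt1, the agonist of TIE2, passed no test. Its signals were 6.18, 6.11 and 5.91 in the PBS 3 h group, 5.45 and 6.17 in the imatinib 3 h group, 5.49, 6.03 and 5.92 in the PBS 24 h group and 6.04, 5.52 and 5.40 in the imatinib 24 h group. All 4 groups overlapped, and the time differences were -0.25 ± 0.22 in PBS (adjusted p = 0.526 in limma) and -0.15 ± 0.24 in imatinib (adjusted p = 0.768). Their confidence intervals, -0.73 to 0.22 and -0.69 to 0.38, do not exclude a fall as large as that of Flt1. Pericytes are a known source of Angpt1, and 8 of 12 pericyte markers fell with time in PBS, with a median of -0.65. That number was 6 without PBS 3 h replicate 2, PBS 24 h replicate 2 or PBS 24 h replicate 3. It was 9 without PBS 3 h replicate 3. In imatinib 1 rose and 0 fell (1 fell without PBS 3 h replicate 2 or replicate 3, and none rose without imatinib 3 h replicate 1 or imatinib 24 h replicate 3), with a median of -0.10. Their mean level was 9.04 to 9.57 in the PBS 3 h group, 8.93 on both imatinib 3 h arrays, 8.61 to 8.86 in the PBS 24 h group and 8.87 to 9.05 in the imatinib 24 h group. In these bulk samples fewer cells of a type and less RNA per cell cannot be told apart.

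Since both angiopoietins bind TIE2 with opposing activity, Angpt2 minus Angpt1 was taken within each array. The difference between these log2 signals shows unequal change of the pair, not which is more abundant. It was 2.55, 2.85 and 3.62 in the PBS 3 h group and 3.82 and 3.16 in the imatinib 3 h group. At 24 h it was 5.23, 4.04 and 4.54 in PBS and 4.78, 4.74 and 5.36 in imatinib. Each 24 h array exceeded each 3 h array. Averaged over the treatments the value was higher at 24 h by 1.53 (two-sided exact permutation of times within treatments, p = 0.005, the smallest that 200 arrangements allow). Within PBS alone the time difference was 1.60 and within imatinib alone 1.47, each with an exact permutation p of 0.1, the smallest possible there. Angpt2 by itself rose by 1.34 in PBS and 1.32 in imatinib, and its 24 h arrays already lay above all its 3 h arrays. The permutation p-values are thus not evidence separate from the rise of Angpt2, and no change of Angpt1 is shown. Imatinib and PBS differed by 0.48 at 3 h and 0.36 at 24 h, with an exact permutation p of 0.4 at both times and a smallest possible p of 0.1.

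**Figure D2:**
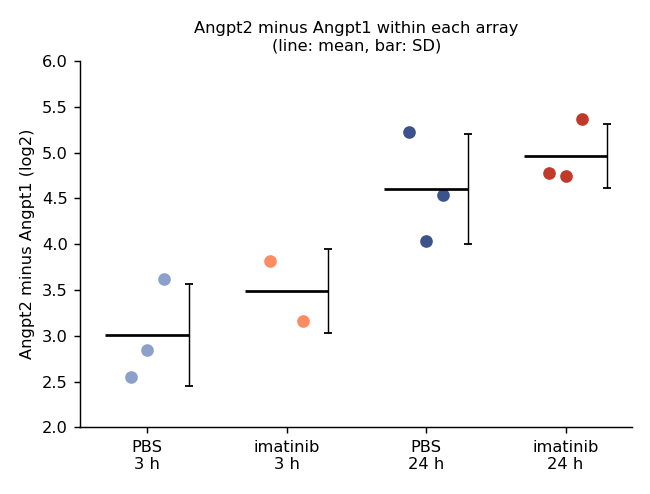
Angpt2 minus Angpt1 (log2) within each of the 11 arrays (points), with the mean (line) and SD (bar) of each group. The 3 h arrays lie between 2.55 and 3.82 and the 24 h arrays between 4.04 and 5.36.

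Of the VEGF receptors, Flt1 fell with time. It read 12.03, 12.02 and 12.11 in the PBS 3 h group and 11.61, 11.63 and 11.51 at 24 h, and 12.12 and 12.12 in the imatinib 3 h group and 11.81, 11.79 and 11.81 at 24 h. The 24 h groups lay below both 3 h groups, and PBS at 24 h was the lowest, below every imatinib array of that time. The fall was -0.47 ± 0.08 in PBS (adjusted p = 0.00207 in limma) and -0.31 ± 0.09 in imatinib (adjusted p = 0.0454). The call in imatinib is a narrow one: it was lost when any of 10 of the 11 arrays was left out, all but PBS 3 h replicate 1, at differences of -0.32 to -0.31 and adjusted p up to 0.165. The fall in PBS passed in every such fit (-0.50 to -0.44).

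Kdr, the main signalling receptor of VEGF-A, did not pass in any comparison. Its signals in PBS were 9.64, 10.18 and 10.03 at 3 h and 10.20, 9.93 and 9.92 at 24 h, which overlap (difference 0.07 ± 0.14, 95% confidence interval -0.24 to 0.37, adjusted p = 0.829 in limma). In imatinib they were 10.12 and 10.05 at 3 h and 10.34, 10.33 and 10.48 at 24 h, the highest of the 4 groups. The difference there was 0.30 ± 0.16 (adjusted p = 0.261 in limma). PBS 3 h replicate 1 gave the lowest Kdr signal of all arrays and also the lowest Nrp2 and Angpt2 signals.

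Flt4, the receptor for VEGF-C and VEGF-D, is best known from lymphatic vessels and sprouting tips. It averaged 8.19 ± 0.08 in the PBS 3 h group, 8.31 on both imatinib 3 h arrays, 7.84 ± 0.15 in the PBS 24 h group and 8.21 ± 0.20 in the imatinib 24 h group. PBS at 24 h lay below PBS at 3 h on every array, with a difference of -0.34 ± 0.12 that did not pass (adjusted p = 0.0733 in limma, and 0.048 without imatinib 24 h replicate 2). The imatinib groups overlapped (-0.10 ± 0.13, adjusted p = 0.718). Of 6 lymphatic endothelial markers, Sema3d lay under the 25th percentile on every array, and the mean level of the 6 was 5.01 to 5.50 over all arrays.

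The neuropilins are receptors for semaphorins as well as partners of the VEGF receptors. Nrp1 rose in imatinib, from 8.98 and 9.33 at 3 h to 9.73, 9.90 and 9.83 at 24 h, a difference of 0.67 ± 0.15 (adjusted p = 0.0109 in limma). The call was lost without imatinib 3 h replicate 1, at 0.49 (adjusted p = 0.126). In PBS its signals were 9.10, 9.49 and 9.07 at 3 h and 9.52, 9.57 and 9.50 at 24 h. All of the later arrays were higher, but the difference of 0.31 ± 0.13 did not pass (adjusted p = 0.150). Without PBS 3 h replicate 2, the highest of its group, it was 0.44 (adjusted p = 0.0322). The time differences of the treatments differed by 0.36 ± 0.20 (95% confidence interval -0.07 to 0.79), which did not pass (adjusted p = 0.915 in limma). Nrp2 means ran from 8.34 ± 0.42 in the PBS 3 h group to 8.63 ± 0.05 in the imatinib 24 h group, and its time differences of 0.17 ± 0.17 and 0.22 ± 0.19 did not pass (adjusted p = 0.589 and 0.536).

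Of the angiopoietin receptors, Tie1 had the largest fall of the family. In PBS it went from 9.30, 9.16 and 9.24 at 3 h to 8.57, 8.57 and 8.24 at 24 h. In imatinib it went from 9.12 and 9.19 to 8.55, 8.75 and 8.70. The times did not overlap in either treatment, and the treatments overlapped at both times. The fall was -0.77 ± 0.11 in PBS (adjusted p = 0.000647 in limma) and -0.49 ± 0.12 in imatinib (adjusted p = 0.024), with a difference between them of 0.29 ± 0.17 (adjusted p = 0.915). Without imatinib 3 h replicate 1 (-0.52, adjusted p = 0.0882), imatinib 3 h replicate 2 (-0.45, 0.132), imatinib 24 h replicate 1 (-0.43, 0.0826) or imatinib 24 h replicate 3 (-0.50, 0.0571) the fall in imatinib no longer passed.

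Tek, which encodes TIE2 itself, read 10.59, 10.59 and 10.60 in the PBS 3 h group and 10.38, 10.28 and 9.79 at 24 h. The 24 h arrays were all lower, 1 of them by far, and the difference of -0.45 ± 0.15 did not pass (adjusted p = 0.0659 in limma). Without PBS 24 h replicate 1 it was -0.56 (adjusted p = 0.0384). In imatinib the signals were 10.56 and 10.74 at 3 h and 10.27, 10.57 and 10.54 at 24 h, which overlap (-0.19 ± 0.17, adjusted p = 0.559).

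Groups that do not overlap in PBS over time were found for 7 of the 10 members, 3 higher and 4 lower, against 29.9% of all genes (15.2% higher, 14.7% lower). In imatinib they were found for 7, 5 higher and 2 lower, against 42.3% (19.4% higher, 22.8% lower).

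**Figure D3:**
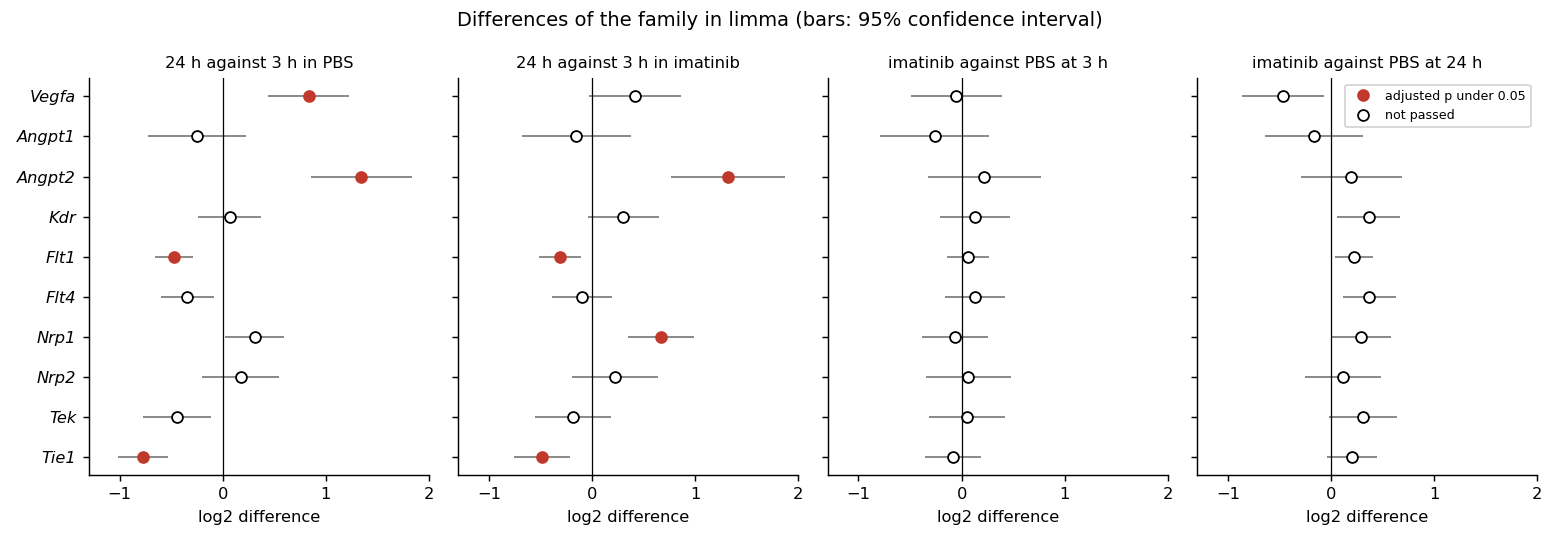
Log2 differences of the 10 members in 4 comparisons with 95% confidence intervals (bars) from limma. Filled points passed an adjusted p of 0.05 over all genes: 4 members in each time comparison and none between imatinib and PBS.

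The VEGF and angiopoietin receptors and Angpt2 are known as endothelial genes, so the members are set beside other endothelial genes. The part of other cells in the signals of the co-receptors Nrp1 and Nrp2 was not tested. Of the 20 endothelial markers, 12 fell with time in PBS and none rose, with a median of -0.41. Without PBS 3 h replicate 3 the number that fell was 8, and without PBS 24 h replicate 3 it was 9. In imatinib 5 fell and none rose, with a median of -0.31 (3 fell without imatinib 3 h replicate 1). Their mean level was 10.75 to 10.93 in the PBS 3 h group, 10.91 to 10.94 in the imatinib 3 h group, 10.26 to 10.44 in the PBS 24 h group and 10.58 to 10.65 in the imatinib 24 h group, and none lay under the 25th percentile in a group.

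Arrays centred on the mean of these markers show the members relative to them. This scaling moves the median of all genes to 0.43 over time in PBS and to 0.26 in imatinib, so each value is read against that median. The test on this scale is still against 0, and 19288 of the 30790 genes passed it in PBS (18753 higher, 535 lower). In imatinib 7200 genes passed (6658 higher, 542 lower), so a pass alone does not set a member apart. Flt1 was at -0.03 ± 0.10 in PBS and -0.01 ± 0.11 in imatinib and passed in neither (adjusted p = 0.824 and 0.946 in limma), and Tek was at 0.00 in PBS, all below that median. Tie1 was at -0.33 in PBS (adjusted p = 0.0268) and at -0.18 in imatinib, where it did not pass (adjusted p = 0.299). Angpt2 was at 1.79 and 1.62, and Nrp1 at 0.76 and 0.97, each above the all-gene median. Vegfa was at 1.28 in PBS and at 0.72 in imatinib (adjusted p = 0.0417). Kdr, at 0.51 and 0.61, and Nrp2, at 0.62 and 0.53, passed on this scale in both treatments (adjusted p = 0.00733, 0.0121, 0.00605 and 0.0476), each above the all-gene median. The signs of Angpt1, Flt4 and Tek turned positive or to about 0, and those values did not pass.

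**Figure D4:**
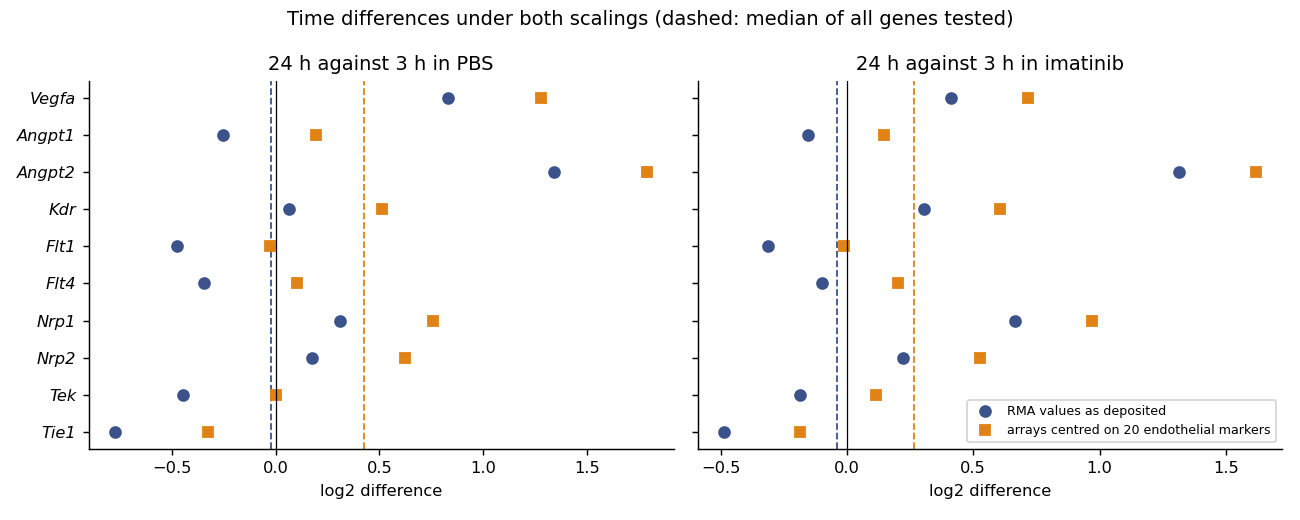
Log2 differences of the members over time as deposited (circles) and with arrays centred on 20 endothelial markers (squares), with the median of all 30790 genes on each scale (dashed lines). Centring moves every member up by a like amount, which leaves Flt1 near 0 and Tie1 as the lowest member.

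The second comparison asked what imatinib changed at each time. No member passed at 3 h or at 24 h, where 0% of the 30790 genes passed, and the interaction also called 0%. At 3 h the members' differences ran from -0.26 (Angpt1) to 0.22 (Angpt2), with adjusted p from 0.914 upward in limma and none under an unadjusted p of 0.05 (6.4% of all genes). The groups did not overlap for 3 members, Flt1 and Flt4 higher and Vegfa lower, against 18.7% of all genes (9.59% higher, 9.14% lower).

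At 24 h the 7 receptor and co-receptor genes were all above 0 with imatinib, from 0.12 (Nrp2) to 0.37 (Flt4), with a median of 0.29, while Vegfa lay at -0.47 ± 0.18. The median of all 10 members was 0.21 and that of all genes -0.01. For Flt1, Kdr, Flt4, Nrp1 and Nrp2 all 3 imatinib arrays were above all 3 PBS arrays, which holds in the same direction for 6.33% of all genes. No member had all imatinib arrays below all PBS arrays, against 6.67% of all genes. An unadjusted p under 0.05 was reached by 5 members against 6.1% of all genes, which were Flt4 (0.37 ± 0.12), Flt1 (0.22 ± 0.08), Kdr (0.37 ± 0.14), Nrp1 (0.29 ± 0.13) and Vegfa. Their adjusted p-values in limma were 0.803 to 0.817, so none of these differences held over all genes. The 95% confidence intervals allow a difference of up to 1.60-fold for Kdr and 1.55-fold for Flt4. PBS 24 h replicate 3 gave the lowest Flt1, Flt4, Tek and Tie1 signals of all arrays and the highest Vegfa signal. With 1 array left out, the Vegfa difference at 24 h ran from -0.66 to -0.24. That of Tek ran from 0.13 to 0.43 and that of Tie1 from 0.09 to 0.26, and all 7 receptors stayed above 0.

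The 20 endothelial markers moved the same way at 24 h, all above 0 with a median of 0.25, with 12 groups apart and 0 past the test. On arrays centred on these markers the 7 receptors lay between -0.13 and 0.13, 4 of them above 0, and Vegfa was at -0.71 (adjusted p = 0.0871), where the all-gene median was -0.26. The part of the endothelial share in the receptor differences was not tested. In the interaction (how far the imatinib effect changed between the times) the receptors ran from 0.05 (Nrp2) to 0.36 (Nrp1) and Vegfa was at -0.42, with adjusted p from 0.915 upward. No member had an unadjusted p under 0.05 there, against 5.49% of all genes.

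The pathway around these genes was followed through 5 lists. Their counts stand beside the shares of all genes given above, 9.34% higher and 7.28% lower in PBS and 7.76% and 5.32% in imatinib. Of the 5 other ligands, Pgf, which encodes placental growth factor, a ligand of VEGFR1, rose in PBS. Its means were 6.21 ± 0.16 at 3 h and 7.40 ± 0.75 at 24 h, a difference of 1.20 ± 0.35 (adjusted p = 0.0388 in limma). That call was lost without any one of PBS 3 h replicates 1, 2 and 3, PBS 24 h replicates 1 and 3, and imatinib 24 h replicate 3. Over all fits with 1 array left out, whether or not the call held, the difference was 0.89 to 1.62. In imatinib Pgf was at 1.12 ± 0.40 (adjusted p = 0.0945, and passing without PBS 24 h replicate 2). Vegfc, a ligand of VEGFR3, was at 0.05 and 0.26 and did not pass, nor did Vegfb, Figf (VEGF-D) and Angpt4, so 1 of 5 rose in PBS and 0 in imatinib. Leaving out PBS 3 h replicate 2 gave 1 fall among the 5 in imatinib, and so did leaving out PBS 24 h replicate 3. Leaving out PBS 24 h replicate 2 gave 1 rise there.

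Of 20 partners, phosphatases and inhibitors at the receptors, 5 rose and 8 fell in PBS (median -0.28; 3 rose and 6 fell without PBS 24 h replicate 1). In imatinib 5 rose and 5 fell (median -0.02). Those counts were 2 and 1 without imatinib 3 h replicate 1, 1 and 1 without imatinib 3 h replicate 2, 2 and 1 without imatinib 24 h replicate 1, and 3 and 3 without imatinib 24 h replicate 3. Ptprb, the endothelial phosphatase VE-PTP that dampens TIE2, fell from 11.88 ± 0.07 to 11.15 ± 0.19 in PBS (-0.73 ± 0.12, adjusted p = 0.00177 in limma). It fell from 11.94 ± 0.05 to 11.39 ± 0.19 in imatinib (-0.55 ± 0.14, adjusted p = 0.0217), a call lost without imatinib 3 h replicate 1 or 2 or imatinib 24 h replicate 1. Thbs1, thrombospondin-1, an inhibitor of angiogenesis, rose by 2.01 in PBS and by 1.53 in imatinib (lost without imatinib 3 h replicate 1). Timp3, a protease inhibitor that also blocks binding of VEGF to VEGFR2, fell by 1.05 in PBS and fell by 1.04 in imatinib. Dab2, an endocytic adaptor, rose by 0.83 in PBS and by 0.70 in imatinib (adjusted p = 0.0444 in limma). The call in imatinib was lost without any one of the 5 imatinib arrays, PBS 3 h replicate 2 or PBS 24 h replicates 1 and 3. Itga5, an integrin chain, rose by 0.78 in PBS and by 0.78 in imatinib (the latter lost without imatinib 3 h replicate 2). Cdh5 and Esam of this list are also among the 20 endothelial markers.

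Among 41 intracellular mediators 5 rose and 11 fell in PBS (median -0.14). The number that rose was 3 without PBS 3 h replicate 1, PBS 3 h replicate 2 or PBS 24 h replicate 1, and it was 2 when PBS 24 h replicate 3 was left out. In imatinib 4 rose and 6 fell (median -0.07), and 1 rose without any one of imatinib 3 h replicates 1 and 2 and imatinib 24 h replicates 1 and 3. Plcg1, the phospholipase recruited by VEGFR2, fell by 0.94 in PBS and fell by 0.84 in imatinib, and Nfatc1, a transcription factor of the calcineurin pathway, fell as well, with differences of -0.87 and -1.09. Map2k2, a kinase upstream of ERK, rose by 0.56 and 0.59 (in imatinib lost without imatinib 3 h replicate 1). Dok2, a docking protein of TIE2, rose by 0.47 in PBS, a call lost without PBS 3 h replicate 1 or 2 or PBS 24 h replicate 1 or 3, and was at 0.10 in imatinib (adjusted p = 0.728 in limma). Map2k1 rose by 0.48 in imatinib, a call lost without any single one of the 5 imatinib arrays. In PBS it was at 0.36 and did not pass (adjusted p = 0.0523 in limma), though it did without PBS 3 h replicate 3 or PBS 24 h replicate 2.

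Genes known to be induced by VEGF in endothelial cells went both ways. Of 24, 3 rose and 9 fell in PBS (median -0.40). Those counts were 2 and 6 without PBS 3 h replicate 3, and 3 and 6 without PBS 24 h replicate 2. In imatinib 1 rose and 6 fell (median -0.25; 3 rose without PBS 24 h replicate 2). Apln, the ligand apelin, which marks sprouting tip cells, rose from 5.85 ± 0.34 to 9.90 ± 0.41 in PBS, a difference of 4.05 ± 0.27 (adjusted p = 5.57e-06 in limma). In imatinib it rose by 4.02 ± 0.31 (adjusted p = 2.52e-05). The immediate early genes Nr4a3 and Nr4a1 fell, with differences of -2.64 and -1.82 in PBS and of -2.98 and -2.06 in imatinib. Pgf is also in this list.

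Of 20 genes of oxygen sensing by hypoxia-inducible factor (HIF) and its common targets, which are relevant since Vegfa is itself a HIF target, 2 rose and 9 fell in PBS (median -0.21). In imatinib 1 rose and 8 fell (median -0.26). Pgk1, a glycolytic enzyme, rose by 1.15 and 1.10, and Egln3, an oxygen-sensing prolyl hydroxylase, rose by 1.83 ± 0.29 in PBS (adjusted p = 0.00114 in limma). Egln3 was at 0.69 in imatinib and did not pass (adjusted p = 0.215). Ndrg1, a stress-induced gene, fell (-2.13 and -1.88), as did Ddit4, an inhibitor of mTOR signalling (-1.68 and -1.76). Slc2a1 of this list is also an endothelial marker. No gene of the 5 lists passed between imatinib and PBS or in the interaction. The median of each list over time stood between -0.40 and 0.06, beside -0.02 and -0.04 for all genes.

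**Figure D5:**
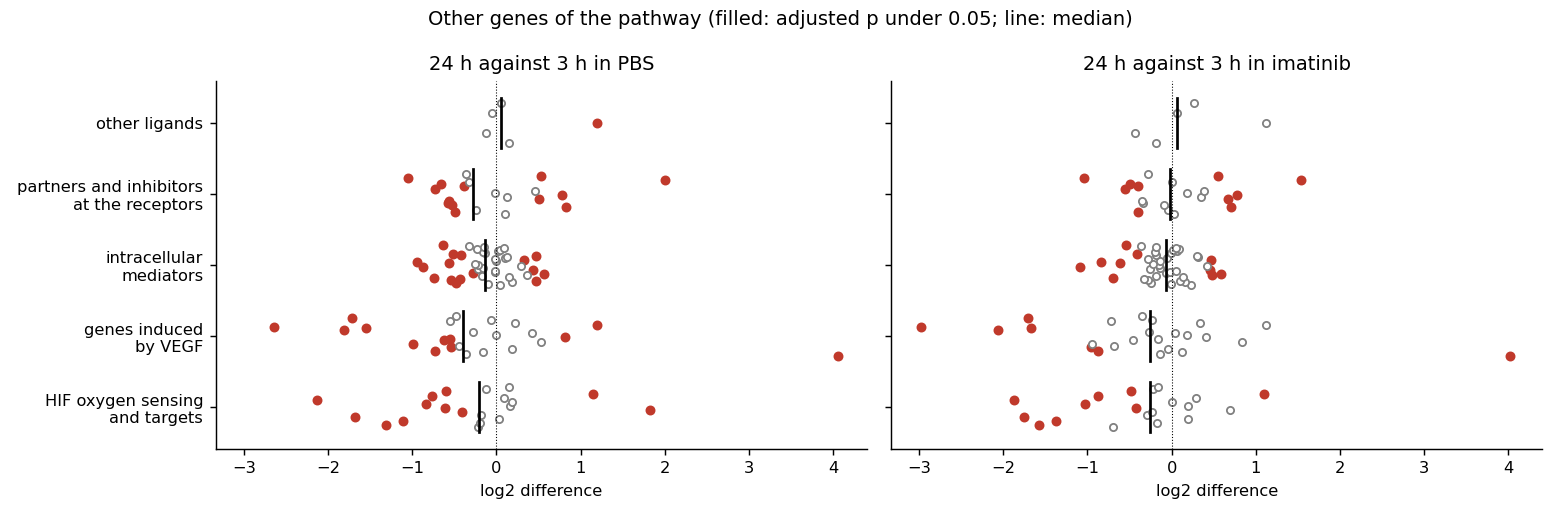
Log2 differences over time of the genes of 5 pathway lists (points; filled points passed an adjusted p of 0.05) with the median of each list (line), in PBS and in imatinib. Apln is the point farthest to the right, at 4.05 in PBS and 4.02 in imatinib.

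For the 4 members that varied most over the 11 arrays, the genes with the most similar profile were named by the root mean square distance between gene-centred log2 profiles, over 18734 genes. Angpt2 (SD 0.76 over the arrays) was nearest to Psmg1 (distance 0.17), Upp1 (0.21) and Stip1 (0.22), all of which passed over time in both treatments. Vegfa (SD 0.43) was nearest to Runx3 (0.14), Agpat9 (0.16) and Nln (0.16), with rises in PBS of 0.58, 0.77 and 0.80 that passed. In imatinib Nln was at 0.61 and passed, and Runx3 and Agpat9, at 0.39 and 0.18, did not. Tie1 (SD 0.36) was nearest to Cadps2 (0.06), Clstn1 (0.07) and Syne2 (0.08), which fell over time in both treatments. Angpt1 (SD 0.31) had Myog (0.12), Plcl1 (0.13) and Rsph9 (0.16) nearest, and none of these passed over time. The points of such a profile share groups and arrays, so the likeness is a description. Neighbours were picked by their distance to the member over these same arrays, so their changes over time largely follow from the choice.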

How the data were processed

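RNA of brain vascular fragments was measured on 11 Affymetrix arrays. Per the labels' protocols, 10 ng of total RNA was amplified and biotinylated with NuGEN kits. The deposited values are log2 signals of 33793 probe sets, made with RMA in Affymetrix Expression Console per the submitters' processing notes, which also name limma. Tool versions, genome build and array model were not given in the sources used here. In their deposited table, the authors' log2 differences between treatments equal the differences of group means.

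Values were not normalized again. Probe sets were dropped that had no symbol (1591), several symbols (128) or a date-like symbol (14), and 730 genes with several probe sets were represented by the one of highest mean, leaving 30790 genes. The labels gave each sample's treatment and time. The tests used limma 3.58.1 (R 4.3.3) with 1 mean per group on all 11 arrays, empirical Bayes variances (7 residual and 4.37 prior degrees of freedom, prior SD 0.154) and Benjamini-Hochberg adjustment over all genes at 0.05. A 95% confidence interval is for the difference of group means and rests on the variance estimated over all 11 arrays, not on the spread of the groups compared alone. "Rose" and "fell" are used of differences past that threshold. On simulated data with 200 of 30790 genes changed, this fit recovered 37.2% of 1.5-fold and 96.4% of 2-fold changes over time in PBS, and 46.8% and 92% for imatinib at 24 h. The measured comparison over time in PBS called 5119 genes, so recovery there can differ from the simulated shares.

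The members and the gene and marker lists were chosen with earlier results of these data known. All members are named. Each pathway list contributed, for each time comparison, up to 2 rises and 2 falls that passed and were largest in size, and Pgf, Vegfc and Ptprb always. The remaining single ligands, the genes shared between lists and the samples named for a lost call were named after their values were seen. Likeness of profiles left out predicted genes, small RNAs, olfactory receptors and Riken clones. Ccl21a of the lymphatic markers matched no gene. Alternatives were a replicate block, other normalizations, filters, probe set rules, variance priors and array weights, and leaving out each array. The array titles number replicates alike in the groups, and the numbers were not taken as pairs in the main fit. Deviations of same-numbered arrays correlated at -0.0373 to 0.0577. These deviations are from means of 2 or 3 arrays, so they cannot settle whether arrays were paired. Promoter windows came from RefSeq (GRCm38.p6). Figures were drawn with matplotlib 3.10.9.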

Additional observations from a re-analysis of the deposited data

How the results depend on the processing

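Of the results for single members, 957 stayed on their side of the threshold, 11 gained a call and 22 lost one. Among the 957, 41 changed sign, 15 of them on arrays centred on the endothelial markers, and none of these was called. No called value reversed. The rise of Angpt2 in both treatments, of Vegfa in PBS and the fall of Tie1 in PBS passed under every alternative run. The fall of Flt1 in PBS was lost only on arrays centred on the endothelial markers (-0.03). That scaling shifted the median of all genes and called 19288 genes over time in PBS (18753 higher and 535 lower, against 2877 and 2242 as deposited; 6 members), 7200 in imatinib (6658 higher and 542 lower, against 2389 and 1638; 5 members) and 1 gene for imatinib at 24 h. Centring arrays on their medians called 2 genes for imatinib at 3 h and lost Flt1 over time in imatinib (-0.27). A trend and robust variance prior gained Flt4 and Tek in PBS (adjusted p = 0.0435 and 0.0343 in limma). Fitting only the groups compared lost Flt1 in imatinib (adjusted p = 0.0819).

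With the replicate block, 2 members passed over time in imatinib, where Flt1 (-0.31, adjusted p = 0.096 in limma) and Tie1 (-0.46, adjusted p = 0.0632) were lost. It called 3379 genes there and 4844 over time in PBS, with 4 members, and changed no call between imatinib and PBS. The correlations of same-numbered arrays had a median of 0.0112, other pairs ran from -0.0577 to 0.0482, and for 7 of 11 arrays the closest array had the same number. Whether arrays were paired is not settled by these values.

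With 1 array left out, 3886 to 4973 genes and 4 to 5 members passed over time in PBS, and 2274 to 4233 genes and 1 to 4 members in imatinib. The low counts there came without imatinib 3 h replicate 1 (2276 genes, 1 member) and replicate 2 (2274 genes, 2 members), each of which leaves 1 array assumed to vary like the other groups. Without imatinib 24 h replicate 1 or 3 it was 2 members as well. Imatinib at 3 h called 0 to 4 genes (1 without imatinib 3 h replicate 1, 4 without replicate 2, 1 without PBS 24 h replicate 3), imatinib at 24 h 0 to 1 (1 without PBS 24 h replicate 1) and the interaction 0 to 2 (2 without imatinib 3 h replicate 2). No member was among them. Angpt2 minus Angpt1 over time ran from 1.37 to 1.70. Causes of these shifts, the smaller number of arrays among them, were not tested. Each member had 1 probe set, so rules for several probe sets could not move its value. Small changes are the limit of these data: at 3 h the simulated recovery of 1.5-fold changes by imatinib was 24%.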
